A study of Rattus norvegicus with 12 samples.

Results

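The comparison described here sets 3 arrays titled adult aorta against 3 arrays titled neonatal aorta, 6 of the 12 arrays of the series. The arrays were chosen by title alone, and all 31042 probe sets that are not array controls were tested. RNA came from the proximal part of the aorta of Wistar rats. Newborn tissue was collected within 24 h of birth, and the adult animals were male, per the labels. The other 6 arrays hold semilunar valves of newborn and adult rats and serve here to share the estimate of spread and as a second tissue. The labels name no treatment and no genetic change. Nothing in them tells whether replicate arrays stem from different animals. The p-values therefore describe the spread among these arrays, which may be technical. The 3 arrays titled adult aorta carry a description and a tissue entry of newborn valve, while their title and source name both give adult aorta. The 3 arrays titled neonatal valve carry the reverse, a description and tissue entry of adult aorta, and serve here as newborn valve by title.

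The aorta is an elastic artery whose wall is built by smooth muscle cells and, in its outer coat, by fibroblasts. Around birth these cells divide, lay down elastic lamellae and collagen and respond to fetal growth factors. In the adult most of them rest, contract and maintain a matrix that turns over slowly. The comparison asks which genes separate these states.

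Each value below is a signal, the brightness of a probe set on a linear scale in arbitrary units. Signals of different probe sets cannot be set against each other. The median of all signals was 172, and a fold change is given only where both group means lay above it. Differences are adult minus neonatal in log2 with the standard error of the fit, and each group has n = 3 arrays. The adjusted p is that of limma with Benjamini-Hochberg adjustment over all 31042 probe sets, and a probe set was called where it was under 0.05. Where a gene has several probe sets, the values are those of the probe set with the highest mean unless another is named; for B2m and Gda it is the probe set with the larger rise.

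Some arrays stood apart, and this precedes the results because it bears on them. Spearman correlations were 0.94 to 0.955 among the neonatal arrays and 0.916 between adult aorta 2 and 3, but 0.735 and 0.7 between adult aorta 1 and these. The 26 skeletal muscle markers summed to 407965 on adult aorta 1 and to 15813 to 89423 on the other 5 aorta arrays. The 28 squamous epithelium markers summed to 392120 on adult aorta 1, 145140 on neonatal aorta 2 and 5459 to 17649 on the rest. Smooth muscle markers were present on every array, with sums of 34032 to 53019 on the neonatal arrays, 39427 on adult aorta 1, and 109733 and 148651 on adult aorta 2 and 3. The 16 white adipocyte markers summed to 179961 on adult aorta 2 and to 21511 to 85181 elsewhere. Bacterial control RNAs added at labelling had geometric mean signals of 13 and 15.99 on neonatal aorta 2 and 3, against 469 on neonatal aorta 1 and 525.5 to 894.6 on the adult arrays. Beta-actin, whose 3' over 5' signal ratio reflects RNA and labelling quality, gave 1.402 to 1.553 on the neonatal and 1.437 to 2.594 on the adult arrays (exact two-sided permutation p = 0.3, smallest possible 0.1). The same ratio of GAPDH was 0.917 to 0.972 on the neonatal and 0.999 to 1.13 on the adult arrays, with no overlap between the ages (p = 0.1 by the exact test, as low as 3 against 3 arrays allow), and its part in the results was not tested.

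**Figure D1:**
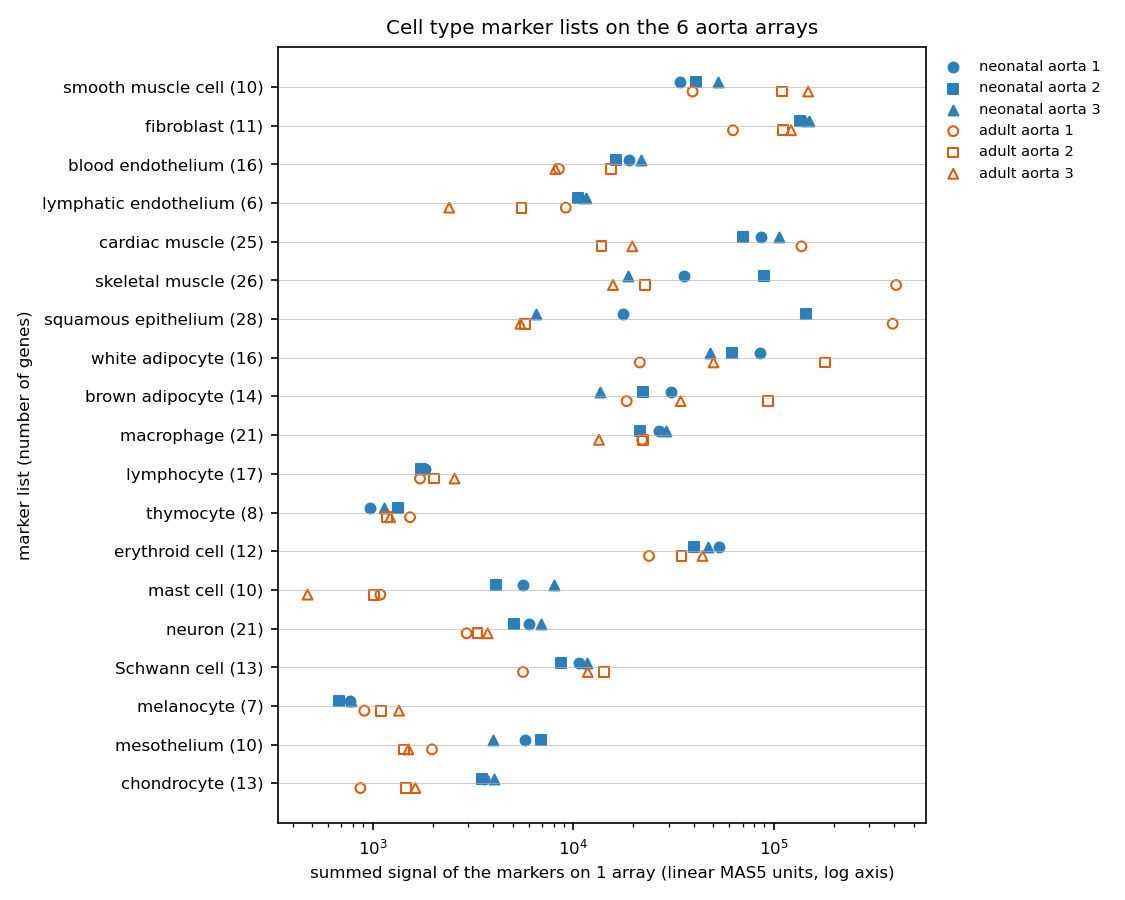
Summed signals of 19 cell type marker lists on each of the 6 aorta arrays (horizontal log axis, linear MAS5 units); filled blue symbols are neonatal and open orange symbols adult arrays, and the shape gives the replicate number. Adult aorta 1 reaches 407965 for skeletal muscle and 392120 for squamous epithelium, and its smooth muscle sum of 39427 lies below the 109733 and 148651 of the other adult arrays.

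More genes were lower in the adult aorta than higher. Of the 31042 probe sets, 1238 (3.99%) were called, 369 (1.19%) higher and 869 (2.8%) lower in the adult, and 340 and 789 of these differed at least 2-fold. They stood for 806 named genes, 200 of them higher and 606 lower. The groups did not overlap for any of the 1238, but they also did not overlap for 8246 probe sets (26.6%) overall. When adult aorta 1 was left out, 2411 probe sets (7.77%) were called, 1001 higher (3.22%) and 1410 lower (4.54%). Of the 1238, 1104 were called again without it and all 1238 kept their direction. In the full fit and in each of the 6 leave-one-out fits, which drop 1 aorta array, 300 probe sets (0.966%) were called, 64 higher and 236 lower. With the level of the added control RNAs as a block, 69 probe sets were called, 62 of them among the 1238 and 59 among the 300. In that fit the block holds neonatal aorta 2 and 3, so the age difference is the adult mean minus neonatal aorta 1 alone. A call lost in it cannot be told apart from the loss of these newborn arrays. In whole tissue, fewer cells of a type and less RNA per cell cannot be told apart, and this holds for every result below.

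Among the 12 genes with the largest falls that were called in every leave-one-out fit and measured above the median at both ages, Cthrc1, Nid2, Mfap2 and Col12a1 encode matrix or matrix-associated proteins, and Igf2, Meg3, Nnat, Mest and Cdkn1c are imprinted. The others were Cdh22, Igfbp3 and Tnnc1. With the control RNA block 7 of the 12 falls kept their call and 5 lost it (Tnnc1, Col12a1, Mest, Cdkn1c and Igfbp3). Tnnc1, troponin C of cardiac and slow skeletal muscle, fell from 9584, 8000 and 12190 to 413, 111 and 229 (44.6-fold, adjusted p = 0.0014), the second largest of these falls. Cthrc1, a secreted protein of collagen-producing cells, had signals of 14020, 13790 and 15400 on the neonatal and 99.4, 464 and 508 on the adult arrays (log2 -5.65 ± 0.63, 50.3-fold, adjusted p = 0.0007). The lowest neonatal array was far above the highest adult array. Cdh22, a cadherin, fell from 6261, 3495 and 3700 to 185, 153 and 218 (log2 -4.56 ± 0.38, adjusted p = 0.0002). Nid2, a basement membrane nidogen, fell from 5477, 4654 and 7792 to 349, 862 and 322 (12.7-fold, adjusted p = 0.00062). The 3 adult values of each of these genes lay close together compared with the distance to the newborn arrays.

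The largest rises by the same rule were smaller. With the control RNA block 11 of these 12 rises lost their call (Gda adjusted p = 0.12, Xdh 0.10 and Zbtb20 0.095), and Tmbim1 kept it (adjusted p = 0.037). Gda, guanine deaminase of purine breakdown, rose from 819, 427 and 580 to 3706, 4889 and 3918 (log2 2.82 ± 0.38, 7.05-fold, adjusted p = 0.0024). Xdh, the xanthine oxidoreductase that makes uric acid in the same pathway, rose from 486, 479 and 589 to 4698, 3515 and 1882 (6.1-fold, adjusted p = 0.0041). Zbtb20, a zinc finger repressor, rose from 1433, 974 and 1077 to 3251, 4629 and 6680 (4.06-fold, adjusted p = 0.0015). The groups did not overlap for any of these, which the rule required and which held for all 1238 called probe sets. The remaining rises were Gsta1, Klf9, Tpd52l1, B2m, Tppp, Dynlt3, Cnst, Clu and Tmbim1, between log2 1.60 and 2.34. For B2m, the light chain of MHC class I, the probe set chosen by the rule rose (log2 2.10, adjusted p = 0.0046), while the brighter probe set did not pass (log2 0.85, adjusted p = 0.16).

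**Figure D2:**
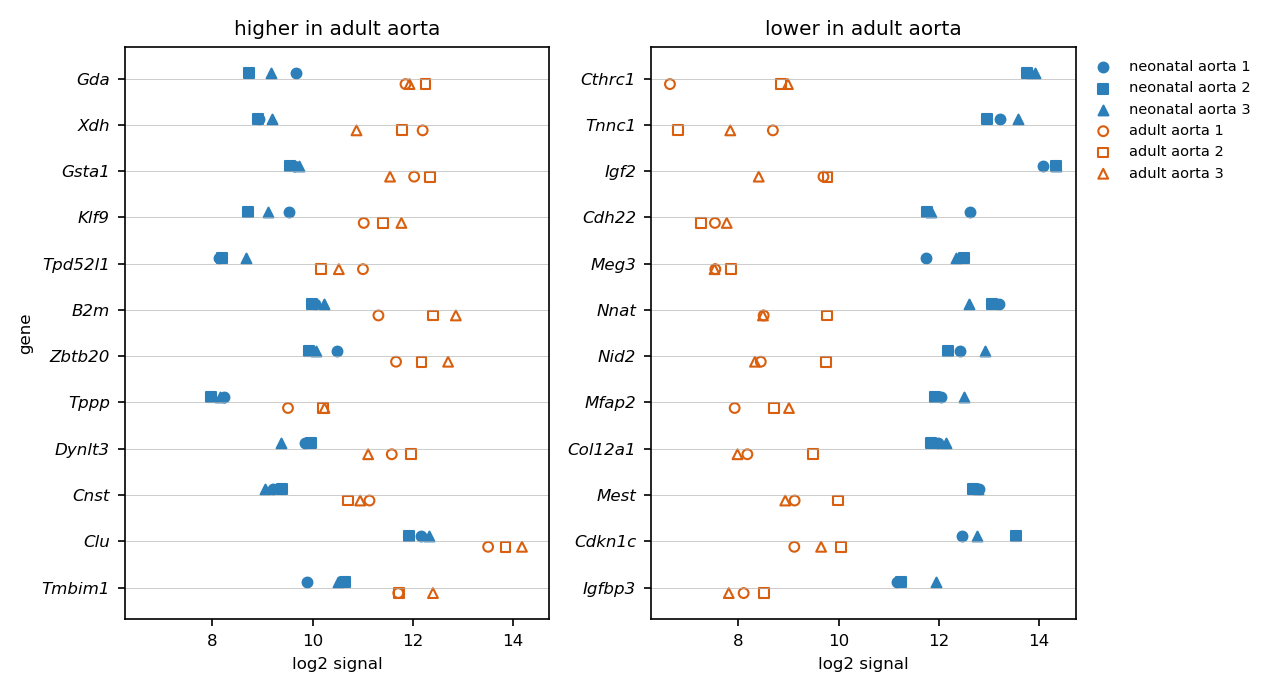
Log2 signal on each of the 6 aorta arrays for the 12 largest rises and the 12 largest falls that were called in every leave-one-out fit and had both group means above the median of all signals; filled blue symbols are neonatal and open orange symbols adult arrays, with the replicate number by shape. The falls reach log2 -5.65 (Cthrc1) and the rises log2 2.82 (Gda). Separate groups of arrays were part of the rule and held for all 1238 called probe sets.

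Among the 42 gene lists, those of cell division had the lowest medians. For comparison with every list count below, 1.19% of all probe sets were called higher and 2.8% lower. Of 30 DNA replication genes 23 fell and 0 rose, with a median log2 difference of -1.86 against 0.06 over all probe sets, and 10 were called in every leave-one-out fit. Mcm6, a subunit of the MCM helicase that opens replication origins, fell from 1016, 1329 and 719 to 174, 123 and 141 (adjusted p = 0.00051). Rrm1, the large subunit of ribonucleotide reductase, which makes DNA precursors, fell from 2377, 1889 and 1976 to 557, 474 and 621 (3.78-fold, adjusted p = 0.00075). Pcna, the sliding clamp of DNA polymerase, fell from 6758, 6935 and 5067 to 2949, 2126 and 2177 (2.59-fold, adjusted p = 0.0043). All 3 adult arrays were below all 3 neonatal arrays for each, and no called probe set of the comparison had overlapping groups. The G1 cyclins Ccne1 and Ccne2 also fell in every leave-one-out fit. Ccne1 had signals of 292 to 403 on neonatal and 20.9 to 32 on adult arrays (adjusted p = 0.0015), and Ccne2 568 to 1031 and 73 to 89.9 (adjusted p = 0.00046). A dimmer Ccne2 probe set did not pass (log2 0.06, adjusted p = 0.95).

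Of 31 mitosis and spindle genes 18 fell and 0 rose, with a median of log2 -2.76, and 3 were called in every leave-one-out fit. Without adult aorta 1 the count was 28 and the median -3.32. Mki67, a marker of dividing cells, had signals of 2408, 2322 and 2730 on the neonatal arrays, 854 on adult aorta 1, and 64.6 and 120 on adult aorta 2 and 3. It was not called on all arrays (adjusted p = 0.066) and was called without adult aorta 1 (adjusted p = 0.0098). Cdk1, the kinase that drives entry into mitosis, fell from 1683, 1897 and 2181 to 516, 121 and 96.3 (adjusted p = 0.01). Plk1, a kinase of spindle assembly, fell from 820, 693 and 1104 to 315, 119 and 109 (adjusted p = 0.0081) and was called in every leave-one-out fit. Adult aorta 1 was the highest adult array for Mki67, Cdk1 and Plk1 alike. Per array, the median gene of the mitosis list lay at log2 -1.51 relative to its neonatal mean on adult aorta 1, and at -3.48 and -3.34 on adult aorta 2 and 3. For the replication list the corresponding values were -1.75, -2.15 and -1.78. Squamous and skeletal muscle markers were also high on adult aorta 1, and their part in the higher mitotic signal was not tested.

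**Figure D3:**
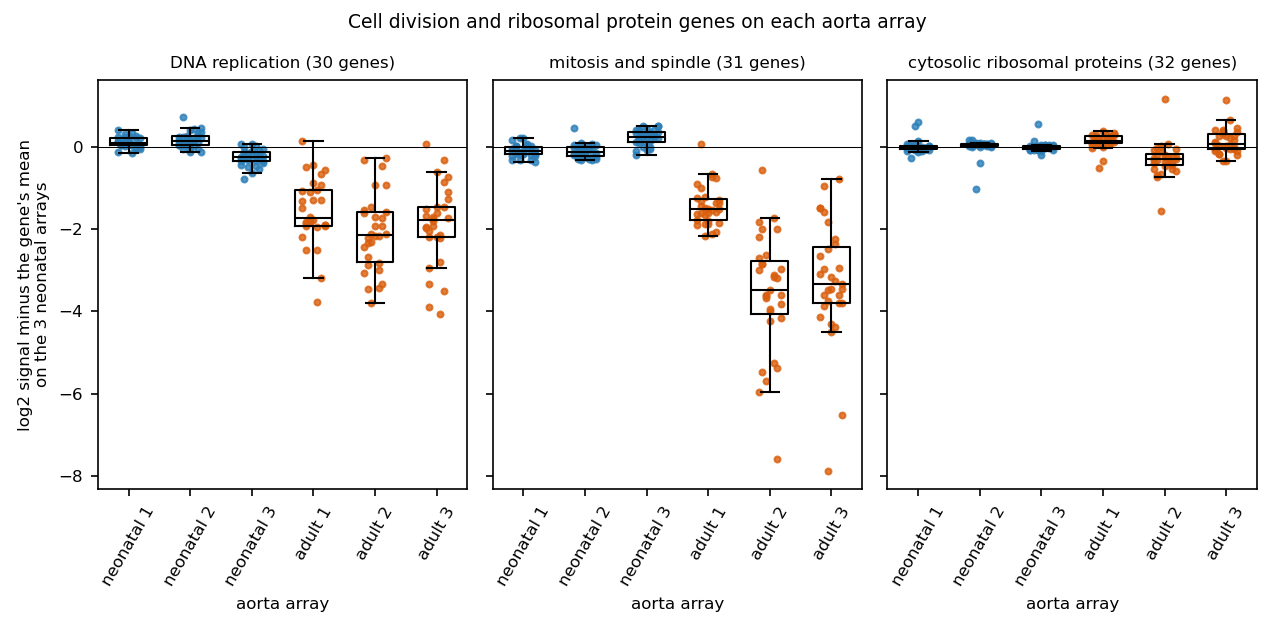
Log2 signal minus the gene's mean on the 3 neonatal arrays, for each gene (points) of the DNA replication (30 genes), mitosis (31 genes) and ribosomal protein (32 genes) lists on each aorta array; boxes give the median and quartiles and whiskers reach to 1.5 times the box height. Adult aorta 1 sits between the neonatal and the other adult arrays for mitosis genes but among the adult arrays for replication genes, and ribosomal protein genes stay near 0 on all 6 arrays.

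Promoters of these lists were examined because many of their members fell together. E2F factors drive S phase genes, and the CCAAT box with the cell cycle homology region is known from genes of mitosis. In RefSeq windows of 300 bases (assembly GRCr8, 250 before to 50 after the gene's start), E2F motifs (TTTCCCGC or TTTGGCGC, both strands) were present in 12 of 29 replication windows (41.4%), covering 27 of the 30 genes, 0 of 27 mitosis windows, and 1.45% of all 33469 windows. The cell cycle homology region (TTTGAA, both strands) was in 19 of 27 mitosis windows (70.4%), covering 26 of the 31 genes, in 1 of 29 replication windows (3.45%) and in 18.3% of all. The CCAAT box (CCAAT, both strands) was in 65.5% of replication, 74.1% of mitosis and 37.5% of all windows. None of these motifs contains another. The windows of 2 members of each list that fell are shown, with motif matches in capitals (E2F and CCAAT in Mcm6 and Mcm3, CCAAT and the cell cycle homology region in Cdk1 and Plk1). A match describes letters and is not evidence of binding.
Mcm6 (chr13:42404303-42404602, strand -): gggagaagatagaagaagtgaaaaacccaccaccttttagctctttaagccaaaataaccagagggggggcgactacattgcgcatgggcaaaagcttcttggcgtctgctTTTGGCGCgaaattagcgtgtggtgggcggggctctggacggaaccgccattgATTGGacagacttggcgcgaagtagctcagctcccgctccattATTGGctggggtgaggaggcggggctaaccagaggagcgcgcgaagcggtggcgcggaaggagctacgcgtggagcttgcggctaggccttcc
Mcm3 (chr9:30733697-30733996, strand -): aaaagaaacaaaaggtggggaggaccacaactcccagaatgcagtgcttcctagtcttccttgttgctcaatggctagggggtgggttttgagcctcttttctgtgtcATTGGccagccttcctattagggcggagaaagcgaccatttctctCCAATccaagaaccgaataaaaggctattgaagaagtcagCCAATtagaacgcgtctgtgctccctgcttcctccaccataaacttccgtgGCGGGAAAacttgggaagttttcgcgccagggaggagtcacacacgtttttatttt
Cdk1 (chr20:19265043-19265342, strand +): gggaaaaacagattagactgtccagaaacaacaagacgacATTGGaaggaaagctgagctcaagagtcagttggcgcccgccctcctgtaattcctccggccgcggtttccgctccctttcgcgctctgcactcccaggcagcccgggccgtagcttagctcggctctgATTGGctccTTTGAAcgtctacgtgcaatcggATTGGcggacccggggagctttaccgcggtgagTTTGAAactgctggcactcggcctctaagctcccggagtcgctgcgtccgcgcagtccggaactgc
Plk1 (chr1:186147408-186147707, strand +): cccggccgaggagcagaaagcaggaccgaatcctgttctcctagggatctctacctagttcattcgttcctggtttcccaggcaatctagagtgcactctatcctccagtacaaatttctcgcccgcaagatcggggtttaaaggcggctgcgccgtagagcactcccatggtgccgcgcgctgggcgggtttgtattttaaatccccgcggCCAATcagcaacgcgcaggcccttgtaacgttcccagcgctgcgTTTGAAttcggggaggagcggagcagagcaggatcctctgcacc

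Mcm3, another helicase subunit, fell from 780, 813 and 678 to 132, 162 and 165 (adjusted p = 0.0069). Its window and that of Mcm6 each held 1 E2F match. The windows of Rrm1, Pcna and Ccne1, which also fell, held 0 E2F matches. Cdk1 held 2 matches to the cell cycle homology region and Plk1 held 1.

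Genes that keep cells out of the cycle did not move as a group. Of 25 quiescence genes 3 rose and 2 fell, with a median of log2 -0.14. Cbx7, a Polycomb protein that represses cell cycle genes, rose from 39.2, 72.6 and 76.6 to 835, 1050 and 722 (adjusted p = 0.00035) and was called in every leave-one-out fit. Rb1, the retinoblastoma protein that restrains E2F, rose from 703, 468 and 351 to 1230, 1341 and 1669 (2.88-fold, adjusted p = 0.028). Its relative Rbl1, p107, fell from 808, 749 and 428 to 223, 99.7 and 58.8 (adjusted p = 0.011). Foxo4, a forkhead factor held back by insulin signalling, rose (log2 1.12, adjusted p = 0.046) but did not pass without adult aorta 1 (adjusted p = 0.072). Cdkn1c, a CDK inhibitor that is imprinted, fell from 5615, 11960 and 6940 to 555, 1059 and 804 (9.96-fold, adjusted p = 0.0027).

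Chromatin proteins of growing cells were lower as well, with 9 of 26 called lower, 0 higher and a median of log2 -0.73. Hmgn2, a nucleosome-binding protein, fell from 16630, 15080 and 17810 to 6545, 6322 and 6101 (2.61-fold, adjusted p = 0.0024). Ezh2, a Polycomb histone methyltransferase, fell from 708, 717 and 673 to 249, 98.5 and 170 (adjusted p = 0.0078), while a dim probe set of it did not pass and pointed the other way (log2 1.48, adjusted p = 0.15). Dnmt1, which copies DNA methylation at replication, fell from 911, 1131 and 860 to 581, 192 and 186 (3.5-fold, adjusted p = 0.026), with adult aorta 1 again the highest adult array. Of 19 ribosome assembly genes 2 fell and 0 rose (median log2 -0.60), and of 37 splicing factors 5 fell and 0 rose (median log2 -0.63). Among these were Gar1, of the ribosomal RNA modification complex (log2 -0.96, adjusted p = 0.021), and Ptbp1, a splicing repressor (log2 -1.22, adjusted p = 0.019). Of 32 cytosolic ribosomal protein genes limma called 0, and at an unadjusted p under 0.05 it found 0 higher and 0 lower. Their median was log2 -0.02, and its sign turned with each array centred on its own median (0.01).

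The fetal growth system was lower at several steps. Of 22 insulin and IGF genes 7 fell and 0 rose, and 6 of the 7 were called in every leave-one-out fit. Igf2, the fetal IGF ligand, fell 31-fold (adjusted p = 9.7e-05), while its 3 dim probe sets did not pass (lowest adjusted p = 0.32). Its clearance receptor Igf2r fell from 6711, 5399 and 8242 to 1801, 1970 and 2445 (3.25-fold, adjusted p = 0.0024), and its second probe set by 3.3-fold. Grb10, an adaptor that damps insulin and IGF receptors, fell from 9496, 9701 and 9888 to 1479, 1748 and 3158 (4.81-fold, adjusted p = 0.0028), and each of its 3 probe sets was called. Igf2bp2, an RNA-binding protein of Igf2 and other messages, fell from 1300, 1378 and 1137 to 270, 202 and 78.6 (adjusted p = 0.0024). The postnatal ligand Igf1 did not pass on any of 3 probe sets (log2 -0.73 to -1.28, lowest adjusted p = 0.12), nor did its receptor Igf1r (log2 -0.52, adjusted p = 0.63).

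Imprinted genes were lower beyond this axis. Of 25 imprinted genes 10 fell and 0 rose, and 9 of the 10 were called in every leave-one-out fit; the IGF and imprinted lists share Igf2, Igf2r, Grb10 and H19. Mest, a hydrolase-like protein of growing mesoderm, fell from 7104, 6536 and 7062 to 557, 1015 and 490 (10.6-fold, adjusted p = 0.0022). Plagl1, a zinc finger factor of an imprinted growth network, fell from 3740, 4556 and 7394 to 654, 175 and 38.2 (adjusted p = 0.0075). Dlk1, a Notch-like ligand of immature cells, fell from 673, 1127 and 1071 to 23.4, 20.5 and 26.2 (adjusted p = 0.00046). Meg3, a noncoding RNA of the same imprinted locus, fell from 3448, 5793 and 5159 to 186, 232 and 184 (23.5-fold, adjusted p = 0.00041). H19, the noncoding RNA beside Igf2, had 14550, 22820 and 19140 on the neonatal arrays, 18160 on adult aorta 1, and 471 and 225 on adult aorta 2 and 3. It was not called (adjusted p = 0.087) and was called without adult aorta 1 (adjusted p = 1.2e-05). For H19, adult aorta 1 read like a neonatal array, while for Igf2 its signal of 831 was among the adult values.

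**Figure D4:**
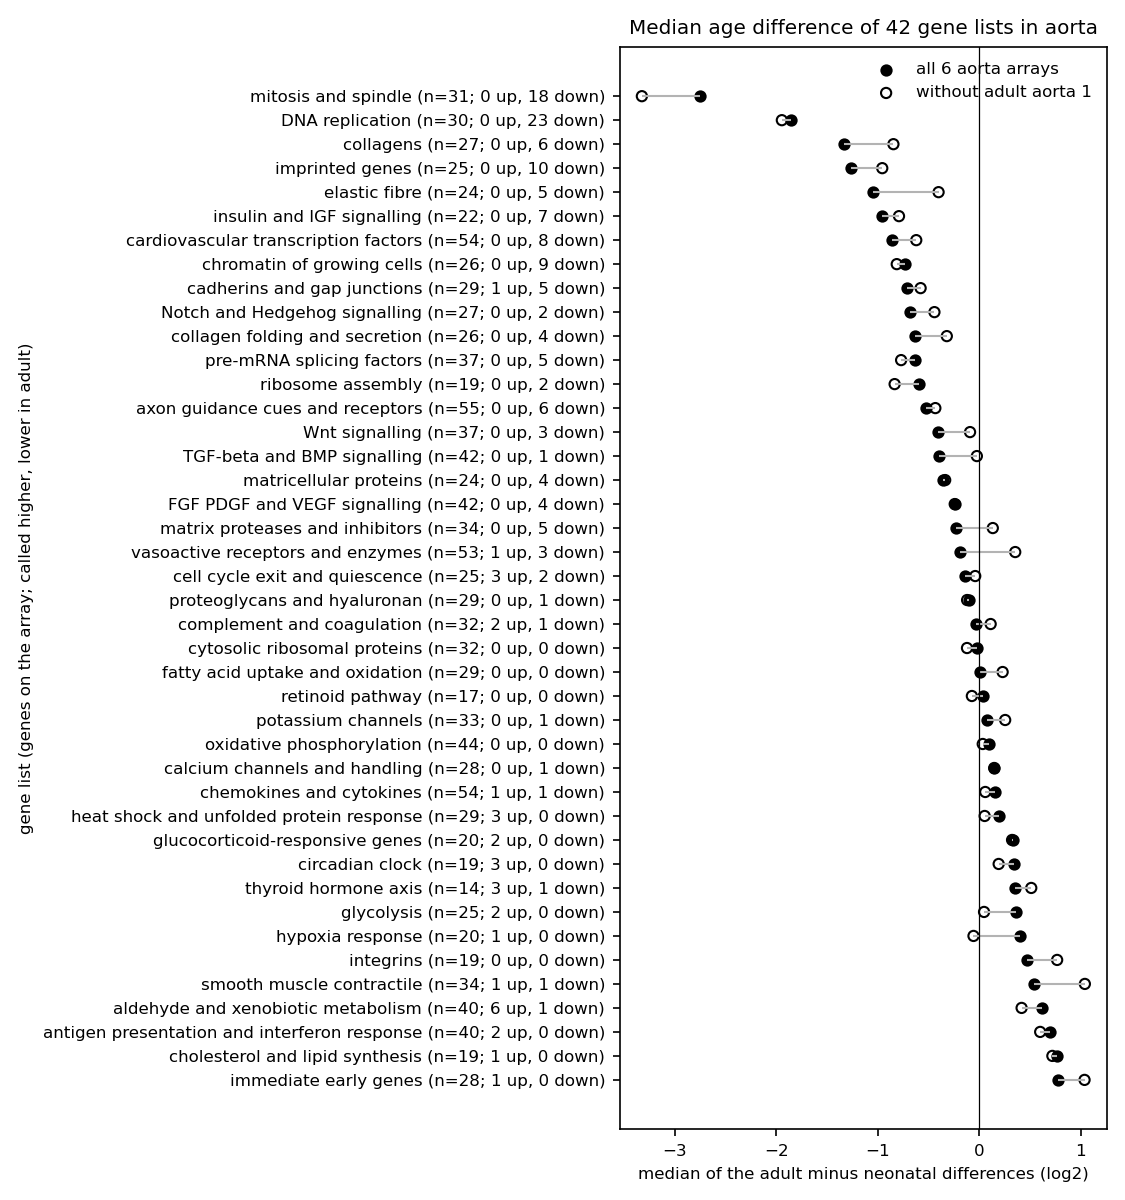
Median adult minus neonatal log2 difference of each of 42 gene lists with all 6 aorta arrays (filled) and without adult aorta 1 (open); the labels give the genes on the array and how many were called higher and lower. Mitosis (-2.76) and DNA replication (-1.86) have the lowest medians, and leaving out adult aorta 1 moves the elastic fibre median from -1.05 to -0.40 and the mitosis median to -3.32.

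In the elastic fibre and collagen lists, the genes called on all arrays were lower in the adult. Of 24 elastic fibre genes 5 fell and 0 rose, and 10 were lower and 0 higher at an unadjusted p under 0.05. Of 27 collagens 6 fell and 0 rose, and 15 were lower and 0 higher at an unadjusted p under 0.05. The collagen median was log2 -1.33, or -0.85 without adult aorta 1. Without that array 1 elastic fibre gene was called higher and 6 lower, and 2 collagens were called higher and 8 lower. The shares of all probe sets in that fit were 3.22% higher and 4.54% lower. Fbn2, the fibrillin of developing microfibrils, fell from 1190, 1369 and 1843 to 5.15, 25 and 20.5 (adjusted p = 0.00014). Fbn1, the fibrillin of mature microfibrils, was not called, with 12450, 12450 and 14250 on the neonatal and 3702, 10770 and 16520 on the adult arrays (adjusted p = 0.52). Mfap2, a microfibril-associated glycoprotein, fell from 4250, 3862 and 5816 to 243, 420 and 516 (12.2-fold, adjusted p = 0.00015). Fbln2, a fibulin of elastic fibres and basement membranes, fell from 8972, 9705 and 12270 to 1418, 1455 and 937 (8.21-fold, adjusted p = 9.7e-05). Elastin itself was not called, and Eln had 19060, 20460 and 20300 on the neonatal arrays, 349 on adult aorta 1, and 11900 and 19370 on adult aorta 2 and 3 (adjusted p = 0.34). Lox, which crosslinks elastin and collagen, had the same order, with 459 on adult aorta 1 against 9277 and 19420 on the other adult arrays. Adult aorta 1 was the lowest array for Eln, Lox and Fbn1, and the elastic fibre median was log2 -1.05 with it and -0.40 without it.

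Among the collagens, Col12a1, which decorates the surface of collagen I fibrils, fell from 4067, 3668 and 4512 to 290, 715 and 253 (10.9-fold, adjusted p = 0.0015), and its 3 probe sets were all called. Col16a1, another fibril-associated collagen, fell from 2553, 2395 and 3237 to 529, 544 and 590 (4.89-fold, adjusted p = 0.00039). The fibril-forming Col3a1 did not pass, with neonatal signals of 32170 to 34770 and adult signals of 8531, 31280 and 37720 (adjusted p = 0.46). Col1a1 did not pass either (log2 -2.54, adjusted p = 0.085), and without adult aorta 1 it was called at log2 -1.37 (adjusted p = 0.035). P3h1 and Fkbp10, which modify and fold collagen chains in the endoplasmic reticulum, fell by log2 1.89 and 2.02 (adjusted p = 0.016 and 0.046). The median of all 26 collagen folding genes was log2 -0.64, with 4 called lower and 0 higher, and -0.32 without adult aorta 1.

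Of 24 matricellular genes, which signal to cells from the matrix, 4 fell and 0 rose. Without adult aorta 1, 3 were called higher and 5 lower, against 3.22% and 4.54% of all probe sets. Thbs2, a thrombospondin, fell from 1364, 1452 and 1463 to 253, 307 and 503 (4.2-fold, adjusted p = 0.0065). Spon1, a secreted spondin, fell from 3579, 3581 and 5274 to 196, 1099 and 532 (8.39-fold, adjusted p = 0.0088). Of 34 matrix protease and inhibitor genes 5 fell and 0 rose. Without adult aorta 1 the counts were 2 higher and 5 lower. Mmp14, the membrane-type collagenase, fell from 10260, 11260 and 12490 to 1465, 3490 and 4425 (4.0-fold, adjusted p = 0.011). Gpc3, a glypican that limits growth, was the single call among 29 proteoglycan genes on all arrays (5.07-fold lower, adjusted p = 0.021).

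Without adult aorta 1, 5 of the 29 proteoglycan genes were called higher and 2 lower, and their median was log2 -0.12 (-0.10 on all arrays). The 3 described next, all small leucine-rich proteoglycans, were picked after their values were seen. Omd, osteomodulin, had 492, 395 and 739 on the neonatal arrays, 1228 on adult aorta 1, and 9819 and 9158 on adult aorta 2 and 3. Its adjusted p was 0.09 on all arrays and 0.016 without adult aorta 1. Prelp, which anchors basement membranes to collagen, had 509, 338 and 415, then 651, and then 3982 and 4002 (adjusted p = 0.074 and 0.0035). Fmod, fibromodulin of collagen fibril assembly, had 940, 912 and 912, then 582, and then 4978 and 5840 (adjusted p = 0.3 and 0.0066). In all of these, adult aorta 2 and 3 were above every neonatal array and adult aorta 1 was far below them.

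Contractile smooth muscle genes had the same split between the adult arrays. Of 34 genes 1 rose and 1 fell, with a median of log2 0.54, or 1.04 without adult aorta 1. Without that array 4 of the 34 were called higher and 2 lower, against 3.22% and 4.54% of all probe sets. Acta2, the smooth muscle actin, had 6890, 8081 and 11150 on the neonatal arrays, 3506 on adult aorta 1, and 22990 and 32960 on adult aorta 2 and 3 (adjusted p = 0.74, and 0.24 without adult aorta 1). Lmod1, a leiomodin that nucleates actin filaments, had 301, 234 and 371, then 727, and then 2647 and 2999 (adjusted p = 0.085, and 0.026 without adult aorta 1). Itga8, an integrin of contractile smooth muscle, had 1307, 1455 and 2456, then 834, and then 16370 and 24880 (adjusted p = 0.32, and 0.0084 without adult aorta 1). Adult aorta 2 and 3 were above all neonatal arrays for Acta2, Lmod1 and Itga8. The called rise was Pdlim3, an actinin-associated LIM protein also found in striated muscle, from 3319, 2808 and 5277 to 11730, 6666 and 9308 (adjusted p = 0.041), highest on the array with the skeletal muscle genes and not called without it (adjusted p = 0.062). The called fall was Rgs5, a G protein regulator of pericytes and arterial smooth muscle, from 3255, 2996 and 5282 to 363, 563 and 360 (8.88-fold, adjusted p = 0.0024).

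Receptors for vasoactive signals were called in both directions, with 1 of 53 higher and 3 lower. These are 1.89% and 5.66%, against 1.19% and 2.8% of all probe sets. Without adult aorta 1, 6 of the 53 were called higher and 4 lower, against 3.22% and 4.54% of all probe sets. Agtr2, the fetal angiotensin receptor, fell from 4325, 3354 and 3868 to 38.1, 113 and 82.3 (adjusted p = 0.0058), and a second probe set fell too (adjusted p = 9.7e-05). Agtr1a, the pressor angiotensin receptor, fell from 2157, 1959 and 3963 to 345, 641 and 635 (4.92-fold, adjusted p = 0.044, and 0.07 without adult aorta 1), and its dimmer probe set was called with and without that array (adjusted p = 0.018 and 0.028). Ramp2, a partner of the adrenomedullin receptor, fell from 3104, 2938 and 4802 to 1111, 1528 and 739 (3.27-fold, adjusted p = 0.022). P2ry2, a receptor for extracellular ATP and UTP, rose from 50.3, 220 and 45.6 to 1017, 559 and 595 (adjusted p = 0.021). It was highest within each age on the arrays rich in squamous genes, neonatal aorta 2 and adult aorta 1. Without adult aorta 1 the adjusted p was 0.034. P2rx1, an ATP-gated cation channel of smooth muscle, had 299, 301 and 236 on the neonatal arrays, 243 on adult aorta 1, and 2701 and 3769 on the others (adjusted p = 0.13, and 0.00017 without adult aorta 1). Ptgs1, cyclooxygenase 1, followed the same order with 427 to 521, then 436, and then 4008 and 5201 (adjusted p = 0.12 and 0.00017). Among 33 potassium channels only Kcna5, a voltage-gated channel of arterial muscle, was called, falling from 451, 422 and 628 to 53.5, 117 and 117 (adjusted p = 0.022).

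Growth factors, guidance cues and junction proteins called on all arrays were mostly lower. Of 42 FGF, PDGF and VEGF genes 4 fell and 0 rose. Mdk, the growth factor midkine, fell from 1915, 1732 and 2249 to 311, 656 and 585 (3.97-fold, adjusted p = 0.0057). Pdgfra, the PDGF receptor of mesenchyme and fibroblasts, fell from 3670, 3054 and 4479 to 1258, 2072 and 1433 (2.38-fold, adjusted p = 0.018). Nrp1, a coreceptor for VEGF and semaphorins, fell from 4626, 4545 and 4699 to 882, 2367 and 1832 (2.96-fold, adjusted p = 0.02). Of 55 axon guidance genes 6 fell and 0 rose, among them Sema6d, a membrane semaphorin, from 1288, 966 and 1597 to 413, 465 and 486 (2.77-fold, adjusted p = 0.0029). Gja4, a connexin of arterial endothelium, fell from 1790, 1756 and 2024 to 253, 633 and 502 (4.29-fold, adjusted p = 0.0097), while Gja5, another connexin of these cells, was not called (log2 -0.91, adjusted p = 0.43). Gja1, the connexin of many tissues, went the other way, from 9348, 8734 and 8362 to 19090, 14530 and 24490 (2.15-fold, adjusted p = 0.026). Of 16 blood endothelium markers limma called 0, with 6 lower at an unadjusted p under 0.05, and their summed signal was 16413 to 21702 on neonatal and 8157 to 15490 on adult arrays.

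Signalling lists of morphogens held few calls. The share lower was 2.38% for TGF-beta and BMP, 8.11% for Wnt and 7.41% for Notch and Hedgehog, against 2.8% of all probe sets. Of 42 TGF-beta and BMP genes 1 fell, Id3, a helix-loop-helix target of BMP, from 13950, 10730 and 12730 to 1142, 3263 and 4606 (4.81-fold, adjusted p = 0.016). Of 37 Wnt genes 3 fell, including the antagonist Sfrp1 from 2487, 2505 and 3186 to 623, 940 and 506 (4.06-fold, adjusted p = 0.0048). Of 27 Notch and Hedgehog genes 2 fell. Gli1, a transcriptional target and effector of Hedgehog, had 382, 283 and 450 on neonatal and 14.4, 44.2 and 45.6 on adult arrays (adjusted p = 0.036, and 0.059 without adult aorta 1).

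Of 54 transcription factors of heart and vessel development 8 fell and 0 rose. Tead2, a DNA-binding partner of YAP, fell from 941, 1248 and 1134 to 199, 218 and 307 (4.64-fold, adjusted p = 0.0017). Sox4, a factor of progenitor cells, fell from 4007, 4031 and 3827 to 816, 1298 and 1522 (3.37-fold, adjusted p = 0.0067). Sox4 has 7 probe sets and 2 of them were called, both lower. Hand2, a factor of heart and arch artery development, fell from 189, 198 and 257 to 28.8, 52.8 and 45.4 (adjusted p = 0.0022). Gata6, a zinc finger factor of vascular smooth muscle, fell from 1202, 1506 and 1919 to 69, 501 and 450 (adjusted p = 0.03), and a dimmer probe set did not pass and pointed the other way (log2 1.09, adjusted p = 0.12).

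Genes that were higher in the adult aorta included hormone targets. Of 14 thyroid hormone axis genes 3 rose and 1 fell, and of 20 glucocorticoid-responsive genes 2 rose and 0 fell. Klf9, a Kruppel-like factor induced by both hormones, rose from 740, 418 and 552 to 2080, 2729 and 3501 (4.88-fold, adjusted p = 0.0014), and both dimmer probe sets did not pass (log2 -0.13 and 2.55, adjusted p = 0.95 and 0.071). Hr, a corepressor of the thyroid hormone receptor, rose from 154, 231 and 96.9 to 1017, 512 and 482 (adjusted p = 0.022). It was highest within each age on the arrays rich in squamous genes, neonatal aorta 2 and adult aorta 1. The part of squamous tissue in this rise was not tested. Nr3c2, the mineralocorticoid receptor, rose from 127, 130 and 82.4 to 206, 777 and 819 (adjusted p = 0.036). Crym, a cytosolic thyroid hormone binder, fell from 243, 435 and 646 to 147, 146 and 116 (adjusted p = 0.019). Thrsp, a lipogenic thyroid hormone target, rose from 216, 237 and 141 to 551, 31830 and 3704 (adjusted p = 0.039), and adult aorta 2, its highest array, also had the highest sum of white adipocyte markers. The part of adipose tissue in this rise was not tested.

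Enzymes of detoxification were the list with the most rises by count, 6 of 40 (15.0%), beside 1 fall, with a median of log2 0.61. By share, the thyroid hormone (3 of 14, 21.4%) and clock (3 of 19, 15.8%) lists had more rises, against 1.19% of all probe sets. Gsta1, a glutathione transferase, rose from 795, 746 and 850 to 4177, 5196 and 2993 (5.05-fold, adjusted p = 0.0035). Akr1c15, an aldo-keto reductase, rose from 14.3, 61.1 and 24.5 to 1166, 2064 and 418 (adjusted p = 0.0023). Aox1, an aldehyde oxidase, rose from 51.1, 78.4 and 68.3 to 341, 1726 and 886 (adjusted p = 0.0034). Aldh3a1, an aldehyde dehydrogenase abundant in squamous and corneal epithelium, rose from 17, 56.6 and 4.18 to 11360, 558 and 444 (adjusted p = 0.013, and 0.01 without adult aorta 1), with its peak on the array that held the squamous markers. Gsta1, Akr1c15 and Aox1 were highest on adult aorta 2 instead, the array with the highest sum of white adipocyte markers (179961). The part of adipose tissue in these rises was not tested.

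Clock genes showed 3 rises among 19 and 0 falls. Their median was log2 0.345, or 0.033 with the mean over all probe sets of each gene. Npas2, a partner of Bmal1 in the forward limb of the clock, rose from 45.5, 62.6 and 96.6 to 743, 990 and 1646 (adjusted p = 0.00043) and was called in every leave-one-out fit. Clock, its paralogue, rose from 721, 787 and 654 to 2346, 1264 and 1685 (2.38-fold, adjusted p = 0.021). Rora, a nuclear receptor that activates Bmal1, rose from 137, 134 and 148 to 1286, 395 and 412 (adjusted p = 0.033). Both Clock and Rora were highest on adult aorta 1. Bmal1 itself had 132, 174 and 287 on neonatal and 582, 604 and 579 on adult arrays and did not pass (adjusted p = 0.069). The repressor Per2 (log2 -0.48, adjusted p = 0.74) and the output factor Dbp (log2 -0.63, adjusted p = 0.53) did not pass either. The time of day of collection is not given in the labels.

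In the lists for sugar use, complement and interferon, 8.0%, 6.25% and 5.0% of genes were called higher, against 1.19% of all probe sets. The counts behind these shares were small. Of 25 glycolysis genes 2 rose and 0 fell, of 32 complement and coagulation genes 2 rose and 1 fell, and of 40 antigen presentation and interferon genes 2 rose and 0 fell. Slc2a1, the glucose transporter GLUT1, rose from 276, 392 and 381 to 1586, 596 and 820 (2.66-fold, adjusted p = 0.031), highest on adult aorta 1. Ndrg1, a gene induced by hypoxia and differentiation, rose from 521, 744 and 1081 to 1647, 4230 and 4233 (4.13-fold, adjusted p = 0.012). It was the single call among 20 hypoxia genes, whose median of log2 0.40 turned to -0.06 without adult aorta 1. Clu, the extracellular chaperone clusterin, rose from 4599, 3884 and 5147 to 11620, 14760 and 18560 (3.26-fold, adjusted p = 0.004). Cd59b, an inhibitor of the complement membrane attack complex, rose from 1835, 2174 and 1673 to 6599, 6723 and 7935 (3.75-fold, adjusted p = 0.012). Isg15, an interferon-induced ubiquitin-like protein, rose from 33.1, 23.7 and 73.6 to 215, 407 and 296 (adjusted p = 0.016). Of 44 oxidative phosphorylation genes limma called 0, with 0 in either direction at an unadjusted p under 0.05, and their median of log2 0.09 turned to -0.07 under quantile normalization.

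Markers of other cell types also separated the ages. Cardiac muscle genes fell in the adult, 7 of 25 with 0 higher. Tnnt2, cardiac troponin T, had 9362, 6707 and 11150 on neonatal and 107, 12.2 and 2.15 on adult arrays (adjusted p = 0.0013). Myh6, the alpha cardiac myosin, had 16670, 11200 and 18510 on neonatal and 6.63, 106 and 124 on adult arrays (adjusted p = 0.002). Summed over the list, cardiac markers gave 70399 to 106136 on neonatal arrays, 13860 and 19735 on adult aorta 2 and 3, and 137655 on adult aorta 1, the array with the skeletal muscle genes. The part of cardiac muscle in other falls was not tested. Of 10 mast cell markers 2 fell and 0 rose, and 0 were called in every leave-one-out fit. Tpsab1, a tryptase, fell from 1281, 744 and 1867 to 24.1, 42.6 and 22.7 (adjusted p = 0.023). Cma1, another mast cell protease, was not called (log2 -4.425, adjusted p = 0.097). The 10 mast cell markers summed to 4114 to 7991 on neonatal and 474 to 1093 on adult arrays. The 10 mesothelium markers summed to 3969 to 6891 and 1431 to 1979, and of these limma called 0, with 6 lower at an unadjusted p under 0.05. Hbe1, an embryonic globin, fell from 349, 166 and 546 to 9.12, 20.7 and 29 (adjusted p = 0.031, and 0.051 without adult aorta 1). Among 21 macrophage markers 2 fell, Lyve1 and Mrc1, the hyaluronan and mannose receptors of resident macrophages. Lyve1 is also in the list of 6 lymphatic endothelium markers, which summed to 10559 to 11593 on neonatal and 2411 to 9191 on adult arrays. Which of these cells held the Lyve1 signal was not tested. Lyve1 had 6351, 6019 and 6895 on neonatal and 3419, 1814 and 758 on adult arrays (adjusted p = 0.045), and Mrc1 was not called without adult aorta 1 (adjusted p = 0.065).

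The same ages were compared in valve. Of the 1238 probe sets called in aorta, 1114 (90.0%) had an estimate of the same sign in valve, against 62.0% of all 31042. The difference between the age differences, aorta minus valve, was called for 11 probe sets (0.0354%), against 3167 at an unadjusted p under 0.05. Pcp4, a calmodulin-binding peptide, fell in aorta from 3972, 4096 and 2318 to 39.6, 13.6 and 11.7 and had 188, 271 and 49.5 on newborn and 90.5, 58.6 and 129 on adult valve arrays. Nnat, neuronatin, an imprinted membrane proteolipid, fell in aorta from 9401, 8489 and 6244 to 363, 874 and 360 and had 315, 425 and 143 in newborn and 364, 278 and 494 in adult valve. The newborn aorta arrays held the high values of both genes, and the other 3 groups lay far below. Hs3st1, a heparan sulfate sulfotransferase, was not called in aorta (adjusted p = 0.23), with 448, 415 and 436 on neonatal and 249, 401 and 235 on adult arrays, while in valve it had 244, 221 and 168 at birth and 956, 821 and 1093 in the adult. Igf2bp3, a fetal RNA-binding protein, fell in both tissues, from 403, 489 and 451 to 49.9, 64.7 and 113 in aorta and from 2198, 1173 and 1882 to 2.49, 3.09 and 3.51 in valve. Its 2 other probe sets did not show that difference (adjusted p = 0.87). Leaving out single aorta arrays gave 1 to 38 called probe sets in place of 11, and the lowest count was reached without each of the 3 neonatal arrays and without adult aorta 3.

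**Figure D5:**
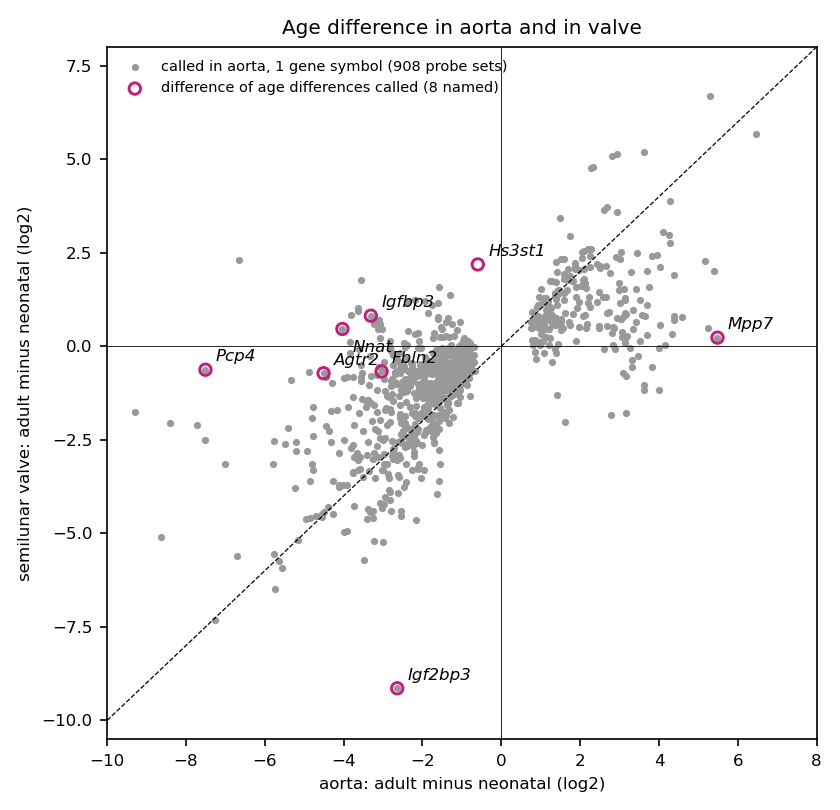
Adult minus neonatal log2 difference in aorta (horizontal) against that in semilunar valve (vertical) for the 908 probe sets with 1 gene symbol called in aorta (grey points) and the 8 named genes called for the difference between both (pink rings); the dashed line marks equal differences. Pcp4 and Nnat lie far to the left near 0 on the valve axis, Igf2bp3 lies lowest, and Hs3st1, not called in aorta, is ringed without a grey point.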

How the data were processed

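Per the labels' protocols, total RNA was isolated using Trizol followed by RNeasy and labelled with an Affymetrix IVT kit. Each deposited value is a linear intensity of 1 probe set; the submitters' processing notes name Expression Console and MAS5. For software versions, scaling target and genome build: not given in the sources used here. Raw images were not analysed here.

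Groups followed the sample titles. The deposited signals were floored at 1 and put on the log2 scale without renormalizing. A linear model with 4 group means over the 12 arrays was fitted in limma 3.58.1 (R 4.3.3; lmFit, eBayes with intensity trend, 8 residual degrees of freedom). All 31042 non-control probe sets of 31099 were tested, two-sided, with Benjamini-Hochberg adjustment. Gene names came from the platform annotation: 20826 probe sets had 1 symbol (20758 matched to RefSeq by gene ID), 436 several and 9780 none. The 42 pathway and 19 marker lists (1265 of 1439 and 277 of 326 genes on the array) and the comparison itself were chosen with earlier results of these data known. Lists are described by counts and medians, which include dim probe sets and so are not exact folds.

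Named genes were the 12 largest rises and falls called in every leave-one-out fit with both means above the median signal, the 8 largest each way with 1 mean at or below it, up to 4 called members per list by adjusted p, up to 6 each way for the difference of age differences, and members named for their role; which eligible members are printed was decided after their values were seen. On simulated arrays with 200 of 31042 probe sets changed (10 draws), log2 changes of 1, 2 and 4 were recovered in 6.1%, 38.1% and 75.1%, with 4.25% of calls false. The simulated noise was normal, independent, and for each probe set of equal spread on all 12 arrays, with no array standing apart. These rates therefore do not carry over to the real arrays, where adult aorta 1 stood apart. Only 3 arrays per group limit the precision. Alternatives covered the filter on low signals, pseudocount, scaling, arrays fitted, variance model, array weights, blocks, left-out arrays and labels. Promoter letters are from RefSeq (GRCr8).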

Additional observations from a re-analysis of the deposited data

Results flagged for a closer look

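For 8 named genes the age difference in aorta differed from that in valve by the fit's own test (limma, Benjamini-Hochberg adjusted p 0.0019 to 0.049). The differences, aorta minus valve in log2, were 6.50 for Igf2bp3, 5.25 for Mpp7, -6.88 for Pcp4, -4.49 for Nnat, -4.13 for Igfbp3, -3.79 for Agtr2, -2.78 for Hs3st1 and -2.37 for Fbln2. Igf2bp3, Mpp7, Pcp4 and Agtr2 have at least 1 group mean below the median of all signals, so their values are not exact folds. Other probe sets of 4 of these genes did not pass. Agtr2's brighter probe set fell by 5.76 in aorta and fell by 5.55 in valve (adjusted p of the difference 0.97). For Mpp7 the brighter probe set had an adjusted p of 0.5, for Igfbp3 the other had 0.11, and for Igf2bp3 the others had 0.87. With the control RNA block, Igf2bp3 alone of the 8 was called for this difference.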

How the results depend on the processing

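The main count was 1238 called probe sets (369 higher, 869 lower). It was 559 (148 and 411) with only the 6 aorta arrays, 3203 (1249 and 1954) with array weights, where adult aorta 1 had a weight of 0.259, and 69 (22 and 47) with the control RNA block. Groups taken from the tissue entry gave 6439. Leaving out 1 aorta array gave 394 to 2411 called, 112 to 1001 higher and 278 to 1410 lower. The counts were 413, 394 and 403 without neonatal aorta 1, 2 and 3. They were 2411, 718 and 1024 without adult aorta 1, 2 and 3. What sets these counts apart was not tested. The count for the difference of age differences, 11, was 65 with array weights, 1 with the control RNA block, 1 without adult aorta 1 and neonatal aorta 2, and 1 to 38 without 1 aorta array. The replicate number as a block gave 934 called, 879 shared with the main count, and 1 for the difference of age differences. Deviations of same-numbered neonatal and adult aorta arrays correlated at -0.14, -0.31 and 0.24. The highest value, 0.393, was between neonatal aorta 2 and adult aorta 1, the arrays rich in squamous genes. These correlations cannot decide whether the numbers pair the arrays, since arrays with different numbers gave the highest value. Pairing of aorta with valve arrays by number was not tested. Of 151 followed genes called, 0 reversed, 81 were called in all 6 fits that left out 1 array, and 24 stayed called with the control RNA block; the cause was not tested. A filter on low signals kept 147 of the 151. Depth does not apply to arrays; dim probe sets give bounds only.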

Other observations

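Immediate early genes, the fast transcriptional response to stimuli, had a median of log2 0.77, or 1.04 without adult aorta 1. On all arrays 1 of 28 was called, and 8 were called higher and 2 lower without adult aorta 1. Atf3, a stress-induced factor, rose from 81.9, 89.3 and 193 to 388, 529 and 590 (limma adjusted p = 0.0092). Fos had 184, 186 and 339 on neonatal and 379, 676 and 1786 on adult arrays (adjusted p = 0.12, and 0.037 without adult aorta 1). Egr1 had 1129, 1135 and 1667 on neonatal and 1295, 1891 and 2358 on adult arrays (adjusted p = 0.52). The adult arrays overlapped the neonatal ones for Egr1 but not for Atf3 and Fos.

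Several rises from dim newborn signals were called in every leave-one-out fit. Grm8, a glutamate receptor of neurons, had 26.1, 23.7 and 19.6 on neonatal and 564, 260 and 350 on adult arrays (adjusted p = 0.00048), but its 2 other probe sets did not pass. Plaat1, a phospholipid-modifying enzyme, had 73.6, 62.3 and 86.8 on neonatal and 897, 1562 and 2003 on adult arrays (adjusted p = 0.00088), and its second probe set rose as well (7.18-fold, adjusted p = 0.0017). Spata19, a mitochondrial protein named for testis, had 12.2, 7.34 and 7.54 on neonatal and 99.6, 229 and 243 on adult arrays (adjusted p = 0.0014). Clec3b, tetranectin, a plasminogen-binding secreted protein, went the other way, from 1444, 1354 and 1872 to 17.3, 18.3 and 11.3 (adjusted p = 0.0065), and its valve estimate was positive (log2 2.30).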
